A study of Homo sapiens with 6 samples.

Results

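Of the 26334 genes in the deposited table, 10 cadherin, catenin and vinculin genes are described here across control and WDR5-silenced breast cancer cells. The members were chosen by gene symbol, with earlier results of these data known. They are 5 cadherins (CDH1, CDH2, CDH3, CDH4 and CDH13), 4 catenins (CTNNB1, JUP, CTNND1 and CTNNA1) and the actin linker vinculin (VCL), and all 10 symbols were found and passed the filter on low counts. The RNA came from MCF10DCIS.com, an established human breast cancer cell line of the MCF10A family that grows as lesions resembling ductal carcinoma in situ. Control cells carried pRSI-U6-shLuc-UbiC-TagRFP-2A-Puro, a hairpin construct that also encodes a red fluorescent protein and puromycin resistance (shLuc, 3 libraries). Silenced cells carried its WDR5 counterpart, pRSI-U6-shWDR5-UbiC-TagRFP-2A-Puro (shWDR5, 3 libraries). Both groups were selected with puromycin at 3 µg/ml and grown in DMEM/F12 with 5% horse serum and added calcium chloride at 1.05 mM. The labels name 1 construct per group and not its hairpin sequence, and elsewhere the study used a pool of WDR5 hairpins. The comparison asks how loss of WDR5, the core subunit of histone H3 lysine 4 methyltransferase complexes, alters the mRNAs of the cell-cell junction.

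Adherens junctions hold neighbouring epithelial cells together. The extracellular part of a classical cadherin binds a cadherin on the next cell in the presence of calcium, and its cytoplasmic tail binds β-catenin (CTNNB1) or plakoglobin (JUP), with p120-catenin (CTNND1) bound closer to the membrane. α-Catenin (CTNNA1) joins this complex to actin and recruits vinculin when the junction is under tension. E-cadherin (CDH1) is the main cadherin of luminal breast epithelium and P-cadherin (CDH3) that of basal and myoepithelial cells. N-cadherin (CDH2) is typical of mesenchymal and neural cells, and its gain at the expense of E-cadherin is known as the cadherin switch of the epithelial-to-mesenchymal transition. R-cadherin (CDH4) is a close relative of N-cadherin. T-cadherin (CDH13) is anchored in the membrane by a lipid and lacks the tail that binds catenins.

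The libraries held 38218108 to 48500509 counts assigned to genes in shLuc and 46097058 to 57640167 in shWDR5. WDR5 itself had 2597, 1880 and 2072 counts in the shLuc libraries and 1083, 1384 and 941 in the shWDR5 libraries. Its level fell from 16.0 ± 0.657 RPKM (RPKM are reads per kilobase of exon scaled to library depth; mean ± SD, n = 3) to 7.17 ± 0.584, which is 2.22-fold (95% interval 1.99 to 2.49). Of 16117 genes tested with edgeR's quasi-likelihood test, 56.5% had a Benjamini-Hochberg adjusted p under 0.05, so passing that threshold was common among all genes. The stricter rule of the study (adjusted p under 0.05, an absolute log2 fold change of at least 0.6 and a level above 0.5 RPKM, read here as the higher of the group means) was met by 18.4%. The labelled cell type was checked against marker lists. Over all 6 libraries the epithelial keratin KRT8 stood between 873 and 969 RPKM and KRT18 between 795 and 940 RPKM, and neither passed the threshold between groups. Of the 8 general and luminal markers 7 were tested, and others moved with the groups in both directions. KRT19 and KRT7 rose (log2 fold changes 1.83 and 0.32), EPCAM and GATA3 fell (-0.33 and -0.39), ESR1 had -0.10 and did not pass, and the summed level was 2796 to 2984 RPKM in shLuc and 2905 to 3156 in shWDR5. The summed level of the 6 fibroblast markers was 3.65 to 3.998 RPKM in shLuc and 2.52 to 3.01 in shWDR5, that of the 4 endothelial markers 1.47 to 1.61 and 0.969 to 1.09, and that of the 4 leukocyte markers 5.62 to 7.03 and 5.56 to 6.64. LUM and CD3E were at 0 in every library, and of the remaining fibroblast, endothelial and leukocyte markers only COL1A1, PECAM1 and CD68 exceeded 0.2 RPKM in any library. The 6 basal epithelial markers (KRT5, KRT14, KRT17, KRT6A, TP63 and ITGB4) moved with the groups. All 6 rose, where 26.6% of all genes tested did so. Their summed level went from 2383 to 2643 RPKM in shLuc to 4299 to 4955 in shWDR5. KRT17 and ITGB4 held most of that sum, and TP63 changed least (log2 fold change 0.42). Reads of KRT5, KRT14, KRT17 and KRT6A may be shared with near-identical keratin copies, and the part of the basal and luminal markers in the changes below was not tested. In a bulk library a change in the share of cells that make an mRNA and a change in the amount per cell cannot be told apart.

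WDR5 silencing moved the 5 cadherin mRNAs apart. CDH1 fell to 0.489 of its control level, while CDH2 rose 3.33-fold, CDH4 2.84-fold, CDH13 1.62-fold and CDH3 1.20-fold. The catenins and vinculin moved by 0.26 or less on the log2 scale in either direction. By the adjusted p alone, 7 of the 10 members rose (26.6% of all genes tested did so) and 2 fell (29.9% of all genes). By the study's stricter rule 2 rose, CDH2 and CDH13 (7.9% of all genes), and 1 fell, CDH1 (10.5% of all genes). The groups did not overlap for 9 of the 10 members, as was the case for 62.3% of all genes. The median log2 fold change of the members was 0.23 against -0.01 for all genes tested, and the median absolute change was 0.26 against 0.31. The members were not chosen blind to these data, so these counts and medians are descriptions.

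**Figure D1:**
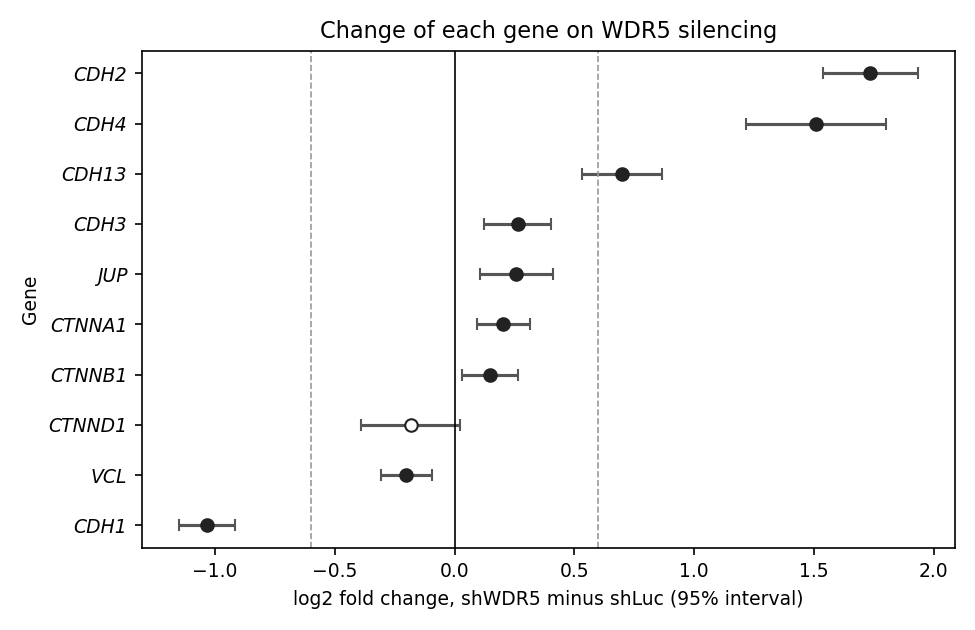
Log2 fold change of each of the 10 genes, shWDR5 minus shLuc (horizontal axis, points), with the 95% interval from edgeR's quasi-likelihood fit of 3 against 3 libraries (bars); filled points passed an adjusted p of 0.05, the open point did not, and dashed lines stand at the study's limit of 0.6 in either direction. CDH1 lies alone at the left at -1.03, CDH2, CDH4 and CDH13 lie to the right of 0.6, and the catenins, CDH3 and VCL stay between the dashed lines.

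E-cadherin (CDH1, chromosome 16, 68771195 to 68869444, plus strand, hg19) had 23348, 19785 and 20375 counts in the shLuc libraries and 10857, 13948 and 11199 in the shWDR5 libraries. Scaled for length and depth, these were 98.1, 106 and 105 RPKM against 48.7, 51.0 and 51.3 RPKM. Every silenced library lay well below every control library. Among the general and luminal markers, EPCAM and GATA3 also fell, KRT19 and KRT7 rose, and KRT8, KRT18 and ESR1 did not pass the threshold. The log2 fold change of CDH1 was -1.03 (SE 0.053, adjusted p 2.64e-07 in edgeR's quasi-likelihood test), and 8.95% of all genes tested had a larger absolute change. Over the 6 libraries, ANLN, an actin-binding protein of the dividing cell, CASP1, the protease that matures interleukin-1β, and ABL2, a tyrosine kinase acting on the cytoskeleton, had the profiles most like that of CDH1 (Pearson's r of log2 CPM of 0.99986, 0.99972 and 0.99957). Such likeness was common with 2 groups of libraries, since 15.1% of the genes tested had an r above 0.95 with CDH1.

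P-cadherin (CDH3) is the immediate neighbour of CDH1 on the same strand (chromosome 16, 68678151 to 68732957), with 38237 bases between the end of CDH3 and the start of CDH1. It had 25521, 19501 and 18986 counts in shLuc and 29711, 32141 and 26326 in shWDR5. As levels these were 121, 118 and 110 RPKM in the control and 150, 132 and 136 RPKM in the silenced cells. The groups were separate but the gap was small, and CDH3 rose by 0.26 on the log2 scale (SE 0.062, adjusted p 0.00452 in edgeR's test). The 2 adjacent cadherin genes thus moved in opposite directions. Of the 3 rows before the pair in the table, PRMT7 and ZFP90 fell (log2 fold changes -0.26 and -0.37) and SMPD3 rose (0.86). Of the 3 rows after it, TANGO6 fell (-0.19), HAS3, a hyaluronan synthase, rose (0.56), and CHTF8 had a log2 fold change of -0.03, which did not pass the threshold.

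N-cadherin (CDH2, chromosome 18, 25530927 to 25757410, minus strand) was a low-level mRNA in the control. It had 560, 530 and 460 counts in shLuc and 1876, 2140 and 1946 in shWDR5. The levels were 2.55, 3.07 and 2.56 RPKM against 9.10, 8.46 and 9.64 RPKM. The lowest silenced library was above the highest control library by more than the spread within either group. The log2 fold change of 1.74 (SE 0.089, adjusted p 2.59e-07 in edgeR's test) was the largest of the 10 members, and 2.46% of all genes tested had a larger absolute change. CDH2 nevertheless remained far below CDH1 and CDH3 in the silenced cells.

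R-cadherin (CDH4, chromosome 20, 59827482 to 60515673, plus strand) was the scarcest member. Its counts were 52, 47 and 50 in shLuc and 168, 184 and 139 in shWDR5, or 0.154, 0.178 and 0.182 RPKM against 0.532, 0.475 and 0.450 RPKM. The groups were clearly separate, with a log2 fold change of 1.51 (SE 0.131, adjusted p 5.96e-06 in edgeR's test). The mean of the silenced group, 0.486 RPKM, lay just under the level of 0.5 RPKM that the study required, so CDH4 was not counted by the stricter rule, although shWDR5 replicate 1 alone was above that level.

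T-cadherin (CDH13, chromosome 16, 82660399 to 83830215, plus strand) had 2351, 1896 and 1628 counts in shLuc and 3467, 4121 and 3390 in shWDR5. The levels were 10.99, 11.29 and 9.32 RPKM in the control and 17.3, 16.7 and 17.3 RPKM in the silenced cells. The silenced libraries were closely grouped and all lay above the controls. The log2 fold change was 0.70 (SE 0.075, adjusted p 2.45e-05 in edgeR's test), past the study's limit of 0.6, which the 95% interval of 0.53 to 0.86 included.

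**Figure D2:**
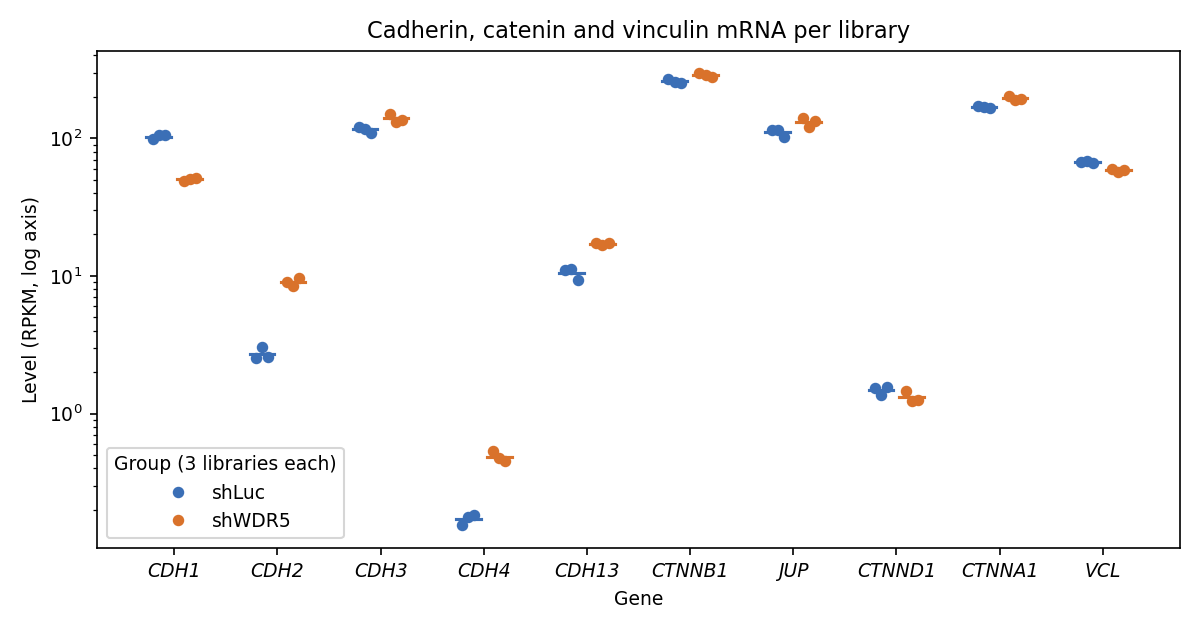
Level of each of the 10 genes in every library in RPKM (vertical axis, logarithmic), with shLuc in blue and shWDR5 in orange, 3 points per group and the group mean as a line. CDH1 drops from about 103 to 50.3 RPKM, CDH2, CDH4 and CDH13 shift upwards, and the catenins and VCL shift little. The low position of CTNND1 comes with 445 exon bases of 6350 that no other gene shares.

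The sequence upstream of the outermost start is given for the most strongly increased member beside that of β-catenin, a member that barely moved. RefSeq windows on GRCh38.p14, a different build from that of the deposited table, were found for 6 of the 10 members (CDH2, CDH4, CTNNB1, JUP, CTNNA1 and VCL; 12 windows in all). The 250 bases before the outermost start of each gene are given 5′ to 3′ on the strand of the gene, with CG dinucleotides, the sites of CpG islands at which histone H3 lysine 4 trimethylation is usually placed, in capitals. The CDH2 window is chr18:28177131-28177380 (minus strand) and the CTNNB1 window is chr3:41199255-41199504 (plus strand).
CDH2: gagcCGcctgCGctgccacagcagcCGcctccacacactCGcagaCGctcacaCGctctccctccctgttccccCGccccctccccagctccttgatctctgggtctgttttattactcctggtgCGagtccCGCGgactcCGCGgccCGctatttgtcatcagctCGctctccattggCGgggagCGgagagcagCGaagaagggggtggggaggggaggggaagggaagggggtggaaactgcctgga
CTNNB1: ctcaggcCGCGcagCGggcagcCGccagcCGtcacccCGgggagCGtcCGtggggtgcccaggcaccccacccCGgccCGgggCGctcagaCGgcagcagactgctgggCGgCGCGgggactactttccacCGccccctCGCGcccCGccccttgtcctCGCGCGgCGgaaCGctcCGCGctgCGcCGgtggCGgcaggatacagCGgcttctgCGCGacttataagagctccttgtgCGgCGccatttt
The CDH2 window held 17 CG dinucleotides and 66% G or C, and the CTNNB1 window 34 and 74.4%, where the median of all 35116 RefSeq windows was 11 and 58%. Neither window held the E-box letters CAGGTG (searched on both strands, so also as CACCTG), which SNAI and ZEB factors can bind, nor CACGTG, which MYC can bind. CAGGTG was present in 17.5% and CACGTG in 6.34% of all windows of this length. Among the 6 members with a window, CAGGTG occurred at 1 start of CDH4 and 1 start of JUP, and CACGTG in none. These matches are letters only and do not show binding, and the counts do not tell which start was in use. A second CDH2 start, with its window at chr18:28036642-28036891, had 4 CG dinucleotides and 42% G or C.

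The ratios between cadherins show the shift inside each library and do not depend on depth or scaling factors. In the control, P-cadherin and E-cadherin were nearly level, with CDH3/CDH1 ratios per length of 1.23, 1.11 and 1.05. In the silenced cells the ratios were 3.08, 2.60 and 2.65, so that P-cadherin exceeded E-cadherin in every library and by more than in any control. The mean log2 ratio rose by 1.30 (SE 0.103), a 2.45-fold change. The CDH2/CDH1 ratio is a measure of a cadherin switch, here in mRNA alone. It was 0.0260, 0.0290 and 0.0244 in the control and 0.187, 0.166 and 0.188 in the silenced cells. The ratio was thus 6.82-fold higher on average, yet E-cadherin mRNA still exceeded N-cadherin mRNA in every library. For protein, the study reported less CDH2 in silenced MCF10DCIS.com cells and no significant difference in total CDH1. The mRNA ratio therefore does not show a switch in protein. CDH4/CDH1 was 5.76-fold and CDH13/CDH1 3.33-fold higher in the silenced cells.

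Against P-cadherin, which moved little, the same cadherins were also higher in the silenced cells, CDH2/CDH3 by 2.78-fold, CDH4/CDH3 by 2.35-fold and CDH13/CDH3 by 1.36-fold. CDH13 fell behind CDH2, its CDH13/CDH2 ratio dropping from 3.88 ± 0.380 to 1.89 ± 0.0948 per length (SD, n = 3). CDH13/CDH4 was 0.579 of its control value. CDH4/CDH2 differed by -0.24 on the log2 scale (SE 0.134), with overlapping groups. For the catenins, the JUP/CTNNB1 ratio was 0.426, 0.443 and 0.404 in the control and 0.471, 0.421 and 0.483 in the silenced cells, and these groups overlapped too. In all, 9 of the 11 ratios had groups that did not overlap, where 62.3% of single genes tested had none. The 10 ratios between cadherins are built from the same 5 genes and are not independent, and ratios of other genes were not computed. Each of those 9 reached the smallest two-sided p that an exact permutation test of 3 against 3 libraries allows, 0.1 (0.122 after Benjamini-Hochberg adjustment over the 11 ratios). CDH4/CDH2 had p = 0.2 and JUP/CTNNB1 p = 0.3 by the same exact permutation test, and no ratio could reach p under 0.05 with that test.

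**Figure D3:**
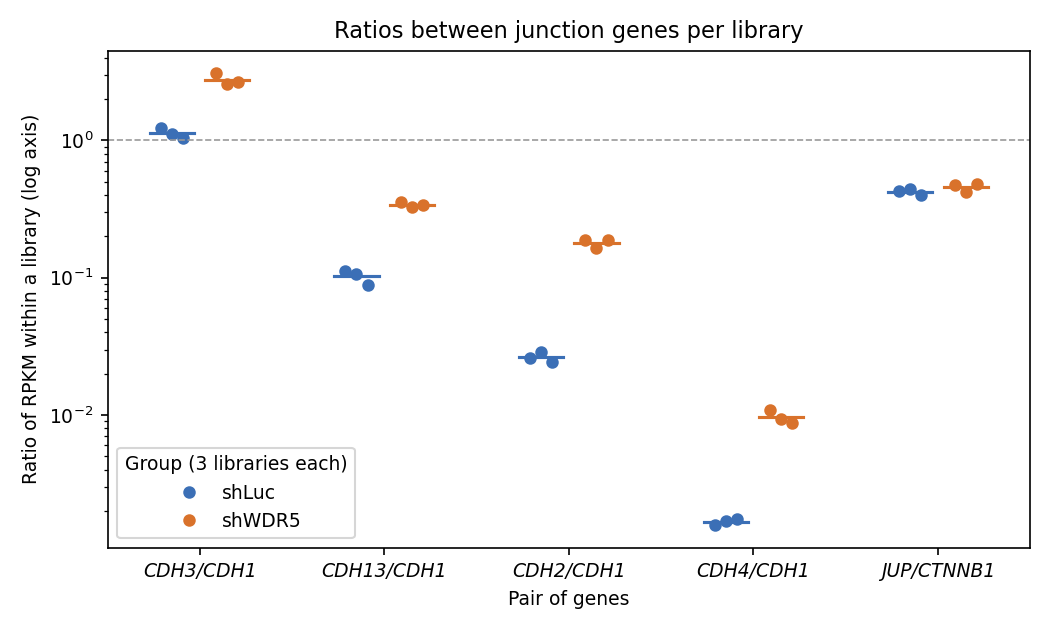
Ratio of the RPKM of 2 genes within each library (vertical axis, logarithmic; the dashed line marks equal levels), shLuc in blue and shWDR5 in orange, 3 points per group with the group mean as a line. All 4 ratios to CDH1 are higher in every silenced library, CDH2/CDH1 rising from about 0.0265 to 0.180, while the JUP/CTNNB1 points of the groups overlap.

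Summed over the 5 member genes alone, cadherin mRNA was 227 to 238 RPKM in the control and 209 to 226 RPKM in the silenced cells. The total of these 5 thus differed far less than its make-up. CDH1 supplied 42.2%, 44.5% and 46.2% of the sum in the control and 21.6%, 24.4% and 23.9% in the silenced cells. CDH3 went from 49.9 ± 1.79% to 64.4 ± 1.83% (SD, n = 3) and was the largest part of the sum in all 6 libraries. CDH13 went from 4.52 ± 0.363% to 7.91 ± 0.215%. CDH2 went from 1.17 ± 0.104% to 4.19 ± 0.263%, and CDH4 was at most 0.236% in any library. These shares describe mRNA per length and were not tested. Other classical cadherins are outside the sum, and together they stood at 26.8 to 31.0 RPKM in shLuc and 35.1 to 40.9 in shWDR5. Most of that was CDH19, with 16.7, 20.1 and 20.7 RPKM in shLuc and 28.9, 31.6 and 34.2 in shWDR5, above CDH13 in every library.

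**Figure D4:**
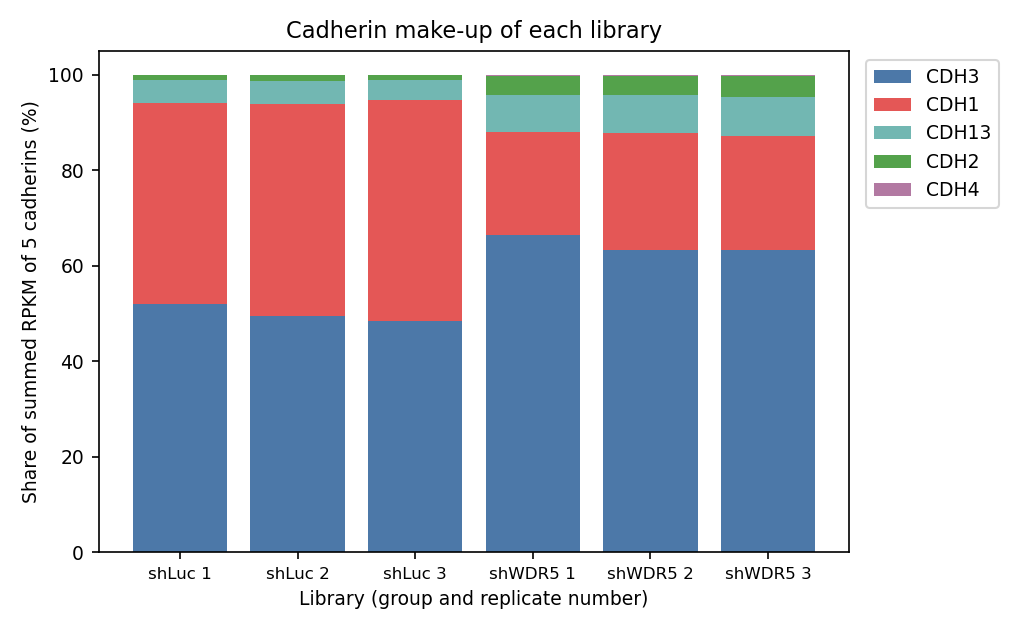
Share of each cadherin in the summed RPKM of the 5 cadherins (vertical axis, percent) for each of the 6 libraries (horizontal axis). The CDH1 segment shrinks from 42.2% to 46.2% in shLuc to 21.6% to 24.4% in shWDR5, CDH3 fills most of the difference, and CDH4 is too scarce to be visible.

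β-Catenin (CTNNB1, chromosome 3, 41240942 to 41281939, plus strand), which links the cadherin tail to α-catenin and also serves as the nuclear effector of Wnt signalling, was the most abundant member. Its levels were 270, 258 and 251 RPKM in shLuc and 296, 289 and 277 RPKM in shWDR5. The groups were separate by a narrow margin, with a log2 fold change of 0.15 (SE 0.052, adjusted p 0.0343 in edgeR's test). That call was lost with library totals as the only scaling (log2 fold change 0.09, adjusted p 0.149), without shLuc replicate 2 or 3 and without shWDR5 replicate 1 or 2 (adjusted p 0.0921 to 0.101).

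Plakoglobin (JUP, chromosome 17, 39910859 to 39942964, minus strand), which can take the place of β-catenin on cadherins and also belongs to desmosomes, stood at 115, 114 and 102 RPKM in shLuc. In shWDR5 it stood at 140, 122 and 134 RPKM, above all controls. It rose by 0.26 on the log2 scale (SE 0.069, adjusted p 0.00856 in edgeR's test). α-Catenin (CTNNA1, chromosome 5, 138089085 to 138270723, plus strand) had 173, 170 and 166 RPKM in the control and 203, 190 and 193 RPKM in the silenced cells. It rose by 0.20 (SE 0.050, adjusted p 0.00555). Of its exon bases, 3.19% overlap LRRTM2 on the opposite strand, which had 12 to 28 counts per library, and the library kit does not mark strand. Vinculin (VCL, chromosome 10, 75757872 to 75879914, plus strand), which reinforces α-catenin's hold on actin, was the only other member besides CDH1 that fell. Its levels were 67.2, 68.3 and 66.2 RPKM in the control against 60.0, 57.1 and 58.4 RPKM, a log2 fold change of -0.20 (SE 0.048, adjusted p 0.00472).

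p120-Catenin (CTNND1, chromosome 11, 57529234 to 57586652, plus strand) keeps cadherins at the cell surface. Its reads appear to have been counted over a small part of its length alone, but the counting settings were not given. Of its 6350 exon bases in the table, 5905 (93.0%) are also exon bases of the read-through gene TMX2-CTNND1 on the same strand, and that gene had 0 counts in all 6 libraries. The remaining 445 bases lie in segments of 358 bases at the 5′ end and 87 bases further downstream. CTNND1 had 480, 338 and 402 counts in shLuc and 429, 444 and 361 in shWDR5. Over the whole length these give 1.49 ± 0.104 and 1.31 ± 0.125 RPKM (SD, n = 3). Over the unshared bases they give 21.3 ± 1.48 and 18.8 ± 1.79, if reads were counted there alone. Its level therefore cannot be placed among the other catenins. The groups overlapped, and the log2 fold change of -0.18 (95% interval -0.39 to 0.02, adjusted p 0.116 in edgeR's test) did not pass the threshold. The adjusted p was 0.0436 with library totals as the only scaling and 0.0320 without shWDR5 replicate 1.

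Ranked by level per length, the control had the order CTNNB1, CTNNA1, CDH3, JUP, CDH1, VCL, CDH13, CDH2 and CDH4, with CTNND1 left out. In that order CDH3 and JUP, and JUP and CDH1, had overlapping ranges, and all other neighbours were separate. In the silenced cells the order was CTNNB1, CTNNA1, CDH3, JUP, VCL, CDH1, CDH13, CDH2 and CDH4, and of these neighbours CDH3 and JUP alone overlapped. CDH1 had thus moved from the level of JUP to below VCL (50.3 against 58.5 RPKM), the single exchange of places among the 9 genes.

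The other genes of the junction and repressors of CDH1 were taken from 6 lists by function with 80 genes in all, of which 70 passed the filter on low counts. Of the 70, 22 rose, 21 fell and 27 did not pass an adjusted p of 0.05. The share called, 61.4%, was near the 56.5% of all genes tested (26.6% higher and 29.9% lower). By the study's stricter rule 2 rose and 4 fell, 8.57% of those tested against 18.4% of all genes. The median log2 fold change was -0.00041 and the median absolute change 0.27, against 0.31 for all genes. The lists are named by what their genes do, and their counts are descriptions.

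Among 14 other classical cadherins, 8 were tested, 2 rose and 2 fell, where 26.6% of all genes rose and 29.9% fell. CDH7, CDH8 and CDH9 had no count in any library. CDH24 fell to 0.341 of its control level (log2 fold change -1.55, SE 0.135). CDH10, a neural cadherin, had 10, 9 and 17 counts in shLuc and 32, 46 and 34 in shWDR5 and rose 2.67-fold. CDH19 rose 1.65-fold, and CDH11, the cadherin of mesenchymal cells and osteoblasts, fell to 0.669 of its control level. Of the 7 other catenins and relatives of p120, 4 were tested and 2 fell, beside the same 29.9% of all genes. The 2 that fell were CTNNAL1, a relative of α-catenin (log2 fold change -0.91, SE 0.069), and ARVCF, a relative of p120 (-0.51, SE 0.072).

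The nectins form the second adhesion system of the adherens junction and are tied to actin by afadin. In that list of 11 genes, all tested, 2 rose, 6 fell and 3 did not pass, where 26.6% of all genes rose and 29.9% fell. PLEKHA7, which binds p120-catenin and anchors microtubules at the junction, fell to 0.458 of its control level (log2 fold change -1.13, SE 0.064). SSX2IP fell by 0.42 and SORBS3 by 0.39 on the log2 scale. Among 18 actin linkers 6 rose, 4 fell and 8 did not pass, beside 56.5% of all genes called in either direction, and none met the stricter rule. The changes with the largest size were those of ZYX (zyxin, 0.42), MYH10 (non-muscle myosin IIB, -0.40), FMN1 (a formin, -0.35) and TES (testin, 0.34). Among 20 genes for cadherin processing, phosphatases and turnover 7 rose, 5 fell and 8 did not pass, beside the same 56.5%, again with none past the stricter rule. PIP5K1C, a lipid kinase needed for cadherin trafficking, rose by 0.53 and the kinase SRC by 0.40, and the protease ADAM15 fell by 0.37 on the log2 scale.

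Of 10 transcription factors known to repress CDH1, 9 were tested. Of these, 5 rose, 2 fell and 2 did not pass, where 26.6% of all genes rose and 29.9% fell. SNAI2 had 7.72, 8.57 and 8.27 RPKM in shLuc and 18.7, 18.7 and 22.1 RPKM in shWDR5. It rose 2.43-fold (log2 fold change 1.28, SE 0.083, adjusted p 9.35e-07 in edgeR's test) and alone in this list met the stricter rule. That rise is in mRNA, and the study reported lower SNAI1 and SNAI2 protein in silenced MCF10DCIS.com cells. ZEB2 was nearly absent from the control, with 2, 3 and 3 counts, and had 34, 22 and 31 counts in the silenced cells. The ratio of its summed counts, corrected for depth, was 9.41 (exact 95% interval 4.57 to 22.5, counting error only). ZEB1 rose 1.72-fold at a level of at most 0.333 RPKM in any library, TCF4 rose 1.33-fold and TCF3 1.17-fold. TWIST1 fell to 0.792 and TWIST2 to 0.675 of the control level. SNAI1, with 37 to 60 counts per library, had a log2 fold change of -0.39 (SE 0.184, adjusted p 0.0965), and KLF8 one of -0.23 (adjusted p 0.128), and neither passed the threshold. FOXC2 was not tested because of low counts.

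**Figure D5:**
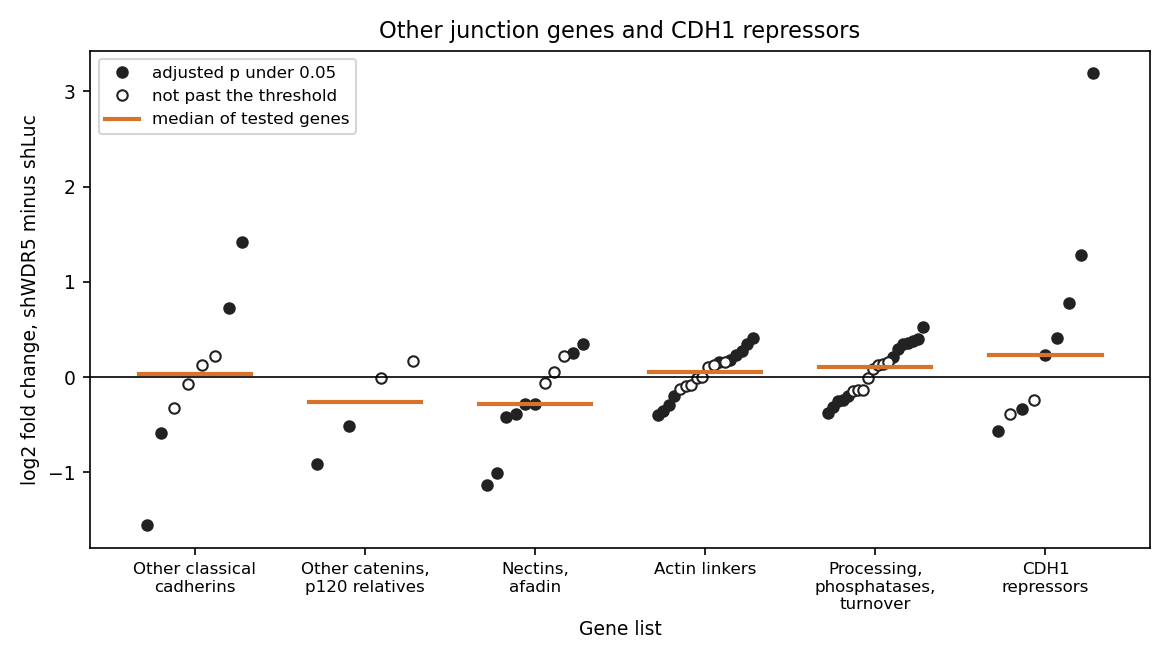
Log2 fold change (vertical axis, shWDR5 minus shLuc) of each tested gene in 6 lists of other junction genes and CDH1 repressors (horizontal axis); filled points passed an adjusted p of 0.05, open points did not, and the orange line is the median of the tested genes of each list. Actin linkers and processing genes stay within 0.53 of 0, nectin-list genes lie mostly below 0, and ZEB2, which rests on 2 to 3 counts per control library, stands highest at 3.19.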

How the data were processed

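Poly(A) RNA libraries (TruSeq, Illumina HiSeq) of 6 samples were used. Per the labels, the submitters' processing notes list TopHat2 2.1.0, featureCounts, edgeR 3.2.2 and the build hg19; the counting settings, including strand, were not given in the sources used here. The deposited table gives raw read counts per gene with exon coordinates and length, and the length equalled the union of exons for all 26334 genes. A second deposited table holds the authors' own edgeR comparison and was not used. Groups and replicate numbers came from sample titles. Nothing states that replicates were separate cultures, so p-values measure the spread between these libraries, which may be technical. Replicates differed beyond sampling noise (chi-square per degree of freedom 7.11 to 18.2).

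From the counts, genes passing filterByExpr (16117) were fitted with edgeR 4.0.16 (TMM, glmQLFit, glmQLFTest, R 4.3.3), with Benjamini-Hochberg adjustment over all of them. The SE is the absolute log2 fold change divided by the square root of F. RPKM used TMM-scaled totals and table lengths. Ratios added 0.5 counts to each gene before the logarithm, and per-length ratios are of RPKM; they were tested by exact permutation (SciPy 1.17.1, two-sided). Intervals on counts cover counting error only. DESeq2 1.42.0 and other scalings, filters, left-out libraries and a replicate block were alternatives. The main edgeR fit alone was tested on simulated data. All 10 members were described whatever their result. From each junction list up to 4 called genes with the largest absolute change were named, and every tested gene of the CDH1 repressors; some genes that this rule would name are not reported here. Neighbours of CDH1 in the table were chosen after values were seen. The members and lists were chosen with earlier results of these data known. The nectins and afadin were matched by the older symbols in the table (PVRL1 to PVRL4 and MLLT4).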

Additional observations from a re-analysis of the deposited data

How the results depend on the processing

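Under 12 alternative fits (other scaling, filters, DESeq2, the replicate block and each library left out), the log2 fold changes of CDH1 (-1.09 to -0.996), CDH2 (1.68 to 1.82), CDH4 (1.44 to 1.56), CDH13 (0.62 to 0.75), CDH3, JUP, CTNNA1 and VCL kept their direction and stayed past the threshold. The CTNNB1 call was lost in 5 of the 12 and CTNND1 passed in 2, as given above. With the study's call rule 2 members rather than 7 were higher and 1 rather than 2 lower, and 1274 rather than 4291 genes were higher and 1688 rather than 4821 lower, because a limit on size and level is added. Without length scaling the CDH1 share was 47.2% in shLuc and 25.4% in shWDR5, that of CDH3 47.2% and 62.3%, and that of CDH4 0.111% and 0.346%. The direction of the 11 ratios did not turn under other pseudocounts, the block or any left-out library; the CDH2/CDH1 difference ranged from 2.71 to 2.84. Levels over unshared exon bases of CTNND1 and CTNNA1 were chosen after seeing the data. The replicate numbers were not taken to pair the libraries: same-numbered libraries had correlations of their deviations of 0.372, 0.0358 and 0.116, and shLuc replicate 2 correlated best with shWDR5 replicate 3 (0.210). With the replicate number as a block, 4901 genes were higher and 5511 lower, and no member's call changed. Low counts limited CDH4, with 47 to 52 counts per control library, and ZEB2, with 2 to 3.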
